A study of Mus musculus with 7 samples.

Results

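The genes described here form the Lin28 and let-7 circuit: the RNA-binding proteins Lin28a and Lin28b, and 6 genes that let-7 microRNAs are known or thought to repress. These are Trim71, the mRNA-binding Igf2bp1, Igf2bp2 and Igf2bp3, and the chromatin proteins Hmga1 and Hmga2. They were chosen by name, and each gene was read through the probe set with exactly 1 gene symbol that had the highest mean over all 7 arrays. By that rule 6 of the 8 named genes were measured, among 19938 genes in all, and Igf2bp2 and Hmga1 were not analysed here.

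RNA levels came from 7 Affymetrix arrays, each loaded with RNA of 1 mouse culture. OG2 embryonic stem (ES) cells, a background that carries a green fluorescent reporter of Oct4, filled 1 array and were grown in N2B27 with the 2i inhibitors of the kinases MEK and GSK3. Induced pluripotent stem (iPS) cells had been made from mouse embryonic fibroblasts (MEFs) infected by Oct4. Line O4-1 gave 1 array in the same 2i medium, and lines O4-1, O4-2 and O4-4 gave 3 arrays in KSR medium. MEFs from 13.5 dpc 129/OG2 embryos gave 1 array in a medium named iCD1 and 1 in FBS medium. The labels name no clone, passage or number of embryos. They give no MEF culture in KSR or 2i, so cell type and medium cannot be told apart between pluripotent cells and MEFs.

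Lin28a and Lin28b bind the loop of let-7 precursors and block their maturation, and Lin28a recruits the uridylating enzymes Tut4 and Tut7 that mark the precursor for decay. Mature let-7 lowers the mRNA and protein of genes whose 3′ ends carry matching sites, Lin28a, Lin28b, Trim71 and Hmga2 among them, so that Lin28 and let-7 hold each other in check. In the mouse, Lin28a and Trim71 are high in early embryonic and pluripotent cells, while let-7 accumulates as cells differentiate.

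The let-7 sequences are shown first, because 1 seed defines the family. All 9 let-7 family members in the RefSeq table (build GRCm38.p6) share the seed GAGGUAG at bases 2 to 8 of the mature strand, the stretch that pairs with a target. The capitals mark that seed in 5 of them, chosen because their precursors are described among the results or, for let-7a, as the family's founding form:
let-7a-5p: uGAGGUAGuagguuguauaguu
let-7d-5p: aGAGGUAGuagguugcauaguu
let-7f-5p: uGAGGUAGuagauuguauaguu
let-7g-5p: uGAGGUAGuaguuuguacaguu
miR-98-5p: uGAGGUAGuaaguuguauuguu
Of 12 let-7 family hairpins in the table, 9 hold GGAG between the arms, the letters that the zinc knuckles of Lin28 are known to bind. For scale, 44.5% of all 1005 mouse hairpins hold GGAG anywhere, a looser count than between the arms. The next 3 hairpins are shown because the results on precursors turn on their probe sets. They are Mirlet7f-1 (chr13:48537829-48537917, minus strand), Mirlet7d (chr13:48536012-48536114, minus strand) and Mir98 (chrX:151913214-151913321, plus strand). Capitals mark the seed and, where present, the GGAG:
Mirlet7f-1: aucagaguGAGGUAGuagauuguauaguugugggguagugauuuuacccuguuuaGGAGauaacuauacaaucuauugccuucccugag
Mirlet7d: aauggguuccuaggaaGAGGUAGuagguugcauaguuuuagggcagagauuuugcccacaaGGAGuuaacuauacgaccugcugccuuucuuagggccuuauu
Mir98: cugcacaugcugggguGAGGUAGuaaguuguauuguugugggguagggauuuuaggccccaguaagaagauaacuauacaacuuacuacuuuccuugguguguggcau
Mirlet7f-1 and Mirlet7d hold the loop letters, and Mir98 does not.

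The labelled cell types were checked against their markers. All 10 pluripotency markers passed the test as higher in the KSR iPS lines than in MEFs, and their mean log2 level lay between 9.70 and 10.18 on the 5 pluripotent arrays and at 4.10 on both MEF arrays. Of 12 fibroblast markers, 10 passed as lower and 0 as higher, with mean levels between 6.41 and 7.37 on the pluripotent arrays and between 9.41 and 10.07 on the MEF arrays. The macrophage, endothelial, extraembryonic endoderm and neural lists, 20 genes measured in all, gave 1 call higher and 3 lower. In the same comparison 12.1 percent of all genes were called higher and 14.3 percent lower. The counts of these 4 lists do not show that such cells were absent. In such bulk RNA, fewer cells of a type and less RNA per cell cannot be told apart.

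Values are log2 expression. The 5 pluripotent arrays were set against the MEFs to ask which genes of the circuit differ between pluripotent cells and fibroblasts. Lin28a, Lin28b, Trim71 and Igf2bp1 were higher in the KSR iPS lines, Hmga2 was lower, and Igf2bp3 differed by less than the test could call. The test was limma on all genes, with Benjamini-Hochberg adjusted p under 0.05 as the threshold. Only the 3 KSR lines were replicated, so their spread served every group, and p-values measure the spread between these lines, which may be technical. Precision is limited by how few arrays there are.

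Lin28a, on chromosome 4, read 7.19 in ES cells in 2i and 7.91 in iPS cells in 2i, 9.05, 9.05 and 8.03 in KSR lines O4-1, O4-2 and O4-4, and 5.50 and 5.63 in MEFs in iCD1 and FBS. Every pluripotent array lay above both MEF arrays, and the 5 pluripotent arrays spread widely. The KSR lines averaged 8.71 ± 0.59 (SD, n = 3 lines), against a mean of 5.56 over the 2 MEF arrays. The difference was 3.15 ± 0.41 (SE; 95% interval 1.97 to 4.33; limma adjusted p = 0.0173), or 8.86-fold. Against the same MEFs, iPS cells in 2i differed by 2.35 ± 0.55 (limma adjusted p = 0.0738) and ES cells in 2i by 1.63 ± 0.55 (adjusted p = 0.152), and neither passed.

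Lin28b, the paralog that acts on the same precursors, read 3.90 in ES cells in 2i, 4.90 in iPS cells in 2i, 5.74, 6.16 and 4.94 in the KSR lines, and 3.71 and 3.23 in MEFs in iCD1 and FBS. ES cells in 2i lay only just above the higher MEF array. The KSR lines averaged 5.61 ± 0.62 (SD, n = 3 lines), against 3.47 in MEFs. They were higher by 2.14 ± 0.43 (SE; 95% interval 0.90 to 3.38; limma adjusted p = 0.0409). With the MEF array in FBS alone the difference was 2.38 with a limma adjusted p of 0.0725, and with that in iCD1 alone it was 1.90 with an adjusted p of 0.0984. Over all its alternatives the adjusted p of Lin28b ran between 0.00680 and 0.186. In 2i, Lin28b differed from MEFs by 1.43 ± 0.58 in iPS cells (adjusted p = 0.191) and by 0.43 ± 0.58 in ES cells (adjusted p = 0.695).

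Trim71, a ubiquitin ligase and mRNA-binding repressor whose worm counterpart lin-41 is a founding let-7 target, was high on every pluripotent array. It read 8.78 in ES cells in 2i, 8.69 in iPS cells in 2i, 9.16, 9.13 and 9.01 in the KSR lines, and 5.46 and 5.53 in the MEFs. The groups did not overlap, and the pluripotent arrays lay within 0.47 of each other. The KSR lines averaged 9.10 ± 0.08 (SD, n = 3 lines), against 5.49 in MEFs, a difference of 3.61 ± 0.10 (SE; limma adjusted p = 0.00659), or 12.2-fold. Trim71 was also higher than in MEFs by 3.20 ± 0.13 in iPS cells in 2i (adjusted p = 0.0147) and by 3.29 ± 0.13 in ES cells in 2i (adjusted p = 0.0187).

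Igf2bp1 and Igf2bp3 encode mRNA-binding proteins of the same family, which stabilise and localise transcripts such as Igf2, and they behaved unlike each other here. Igf2bp1 read 9.97 in ES cells in 2i, 10.05 in iPS cells in 2i, 10.12, 10.04 and 10.37 in the KSR lines, and 7.87 and 8.08 in the MEFs. It was higher in the KSR lines by 2.20 ± 0.14 (limma adjusted p = 0.00781), and by 2.07 ± 0.19 in iPS cells in 2i (adjusted p = 0.0202) and 1.99 ± 0.19 in ES cells in 2i (adjusted p = 0.0245). A second probe set of Igf2bp1 gave a KSR difference of 2.52. Igf2bp3 read 8.11 in ES cells in 2i, 7.98 in iPS cells in 2i, 7.93, 8.03 and 8.27 in the KSR lines, and 7.81 and 7.91 in the MEFs. The lowest pluripotent array stood 0.02 above the higher MEF array. Its KSR difference was 0.22 ± 0.14, with a 95% interval of -0.20 to 0.63 (limma adjusted p = 0.362), and its differences in 2i were 0.12 in iPS cells and 0.25 in ES cells.

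Hmga2, an AT-hook protein that bends DNA and opens chromatin and a classical mammalian let-7 target, ran the other way. It read 6.08 in ES cells in 2i, 6.14 in iPS cells in 2i, 6.38, 6.21 and 6.26 in the KSR lines, and 7.75 and 8.79 in MEFs in iCD1 and FBS. All 5 pluripotent arrays lay within 0.30 of each other and below both MEF arrays. The KSR lines were lower by 1.99 on the log2 scale (difference -1.99 ± 0.10, limma adjusted p = 0.00667), iPS cells in 2i by -2.13 ± 0.13 (adjusted p = 0.0153) and ES cells in 2i by -2.19 ± 0.13 (adjusted p = 0.0190). The MEF arrays differed from each other by -1.04 (iCD1 minus FBS), a spread that these SEs do not contain. A fit of 3 groups, in which it counts, gave the KSR difference an SE of 0.28 and a limma adjusted p of 0.00163, within a range of 0.00113 to 0.0833 over all alternatives. The KSR difference was -1.47 against MEFs in iCD1 alone and -2.51 against MEFs in FBS alone, past the threshold in both.

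**Figure D1:**
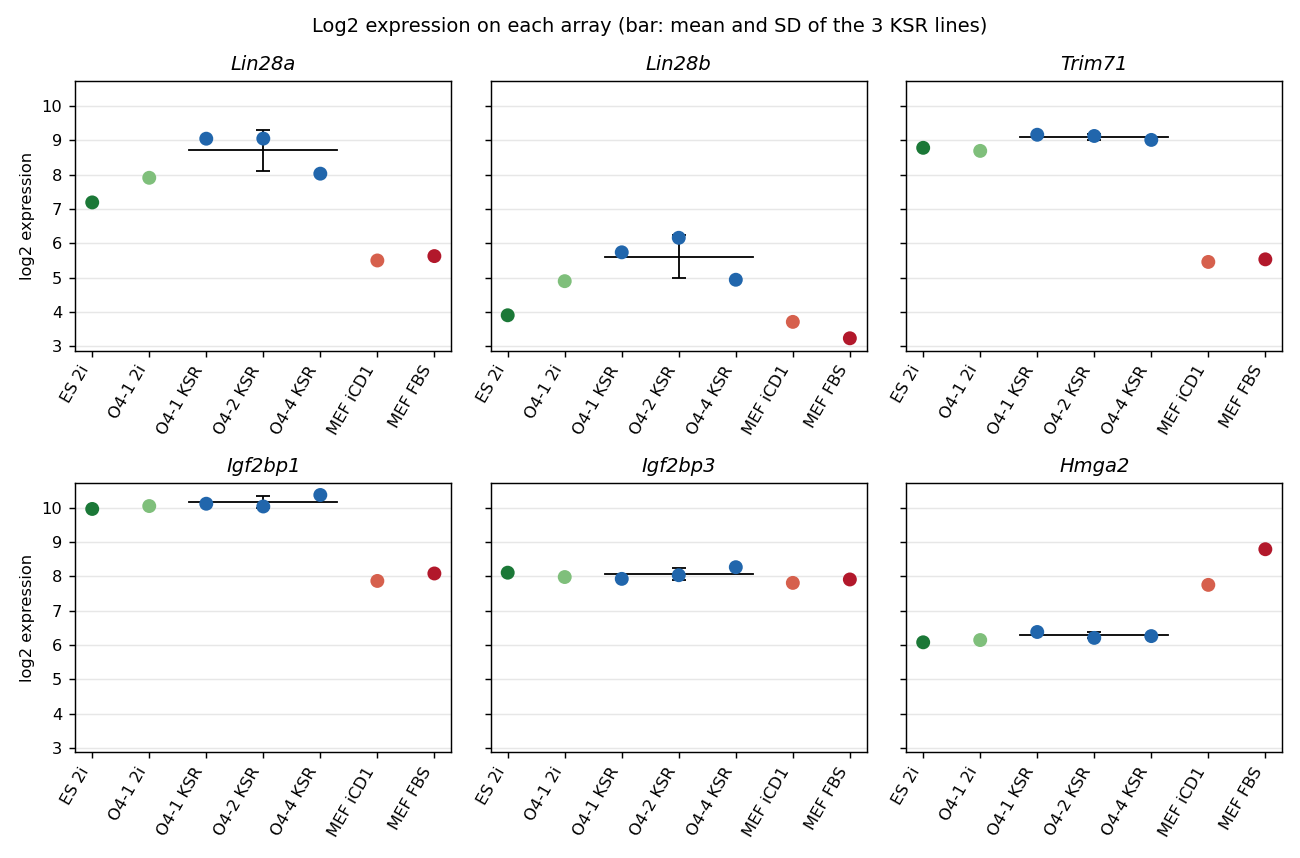
Log2 expression of the 6 measured genes (y axis) on each of the 7 arrays (x axis), 1 panel per gene and 1 point per array, with the mean and SD of the 3 KSR lines as a bar. Heights compare arrays within a panel, not genes. Trim71 and Igf2bp1 sit high and close together on all 5 pluripotent arrays, Lin28a and Lin28b spread over 1.86 and 2.26 there, and Hmga2 is highest in MEFs in FBS at 8.79.

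In counts, 4 of the 6 genes were called higher and 1 lower in the KSR lines than in MEFs, where 12.1 and 14.3 percent of all 19938 genes were called higher and lower, 26.4 percent in all. Their median difference was 2.17, beside 0.00 over all genes. In iPS cells in 2i, 2 were called higher and 1 lower (6.24 and 8.85 percent of all genes, 15.1 percent in all), and in ES cells in 2i likewise 2 and 1 (5.37 and 7.46 percent, 12.8 percent in all). The 3 genes called in each of these comparisons were Trim71, Igf2bp1 and Hmga2. The comparisons share the MEF arrays, so they are not separate evidence. With line O4-1 or line O4-2 left out, limma called 0 of the 6 genes and 0 of all genes in the KSR comparison, where 5804 and 6924 genes had an unadjusted p under 0.05. Without O4-4 it called 5 of the 6. Without those lines the Lin28a difference was 2.98, 2.98 and 3.49, and that of Trim71 3.58, 3.60 and 3.65. Without any 1 of the 3 lines, 0 genes were called in the 2i comparisons with MEFs.

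**Figure D2:**
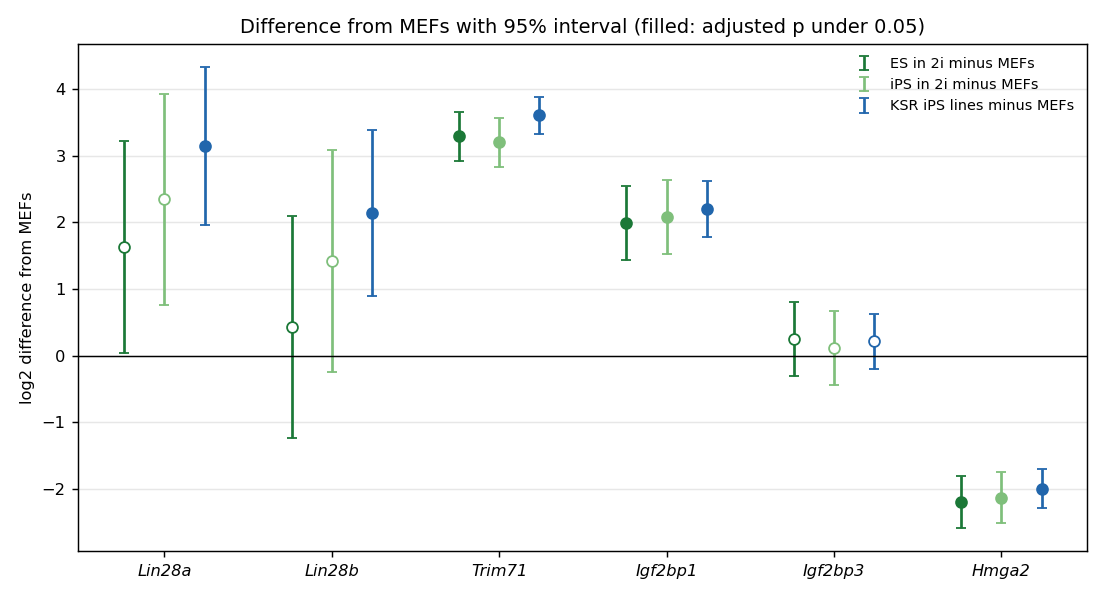
Log2 differences from the mean of the 2 MEF arrays (y axis) for each measured gene (x axis), for ES cells in 2i, iPS cells in 2i and the KSR iPS lines, with 95% intervals from limma. Filled points have an adjusted p under 0.05. Trim71 lies between 3.20 and 3.61 in all 3, Lin28a between 1.63 and 3.15, and Hmga2 between -2.19 and -1.99.

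The 2i cultures were then set against the KSR lines to ask how the circuit varied among pluripotent cells. ES cells gave no array in KSR. Wherever ES cells enter a comparison with the KSR lines, cell type and medium cannot be told apart. Among the 6 genes Lin28a and Lin28b varied most, and Igf2bp1, Igf2bp3 and Hmga2 varied less than the median gene. Over the 5 pluripotent arrays the log2 range was 1.86 for Lin28a and 2.26 for Lin28b, against 0.47 for Trim71, 0.41 for Igf2bp1, 0.34 for Igf2bp3 and 0.30 for Hmga2. The median range of all genes was 0.455, and 7.56% of genes had a range of 1 or more. Lin28a and Lin28b had the same order of arrays: O4-2, O4-1 and O4-4 in KSR, then O4-1 in 2i, then ES cells in 2i. For Lin28a, lines O4-1 and O4-2 did not differ (0.00), and O4-4 in KSR lay only 0.12 above O4-1 in 2i.

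None of the 6 genes passed the test between 2i and KSR, and 0.0 percent of all genes did (0 by limma, with 1798 at an unadjusted p under 0.05 for both 2i cultures together). The mean of both 2i arrays minus the mean of the KSR lines was -1.16 ± 0.41 for Lin28a (SE; 95% interval -2.34 to 0.02; limma adjusted p = 0.551) and -1.21 ± 0.43 for Lin28b (95% interval -2.45 to 0.03; adjusted p = 0.551). Trim71 differed by -0.36 ± 0.10 (95% interval -0.64 to -0.09), with an unadjusted p of 0.0229 that became 0.545 after adjustment over all genes. The intervals were -0.58 to 0.25 for Igf2bp1, -0.44 to 0.38 for Igf2bp3 and -0.46 to 0.12 for Hmga2, so differences past 1 log2 unit lie outside the intervals of Trim71 and these 3 genes but inside those of Lin28a and Lin28b. ES cells in 2i alone differed from the KSR lines by -1.52 ± 0.52 for Lin28a and -1.71 ± 0.54 for Lin28b, with unadjusted p of 0.0478 and 0.0395 and a limma adjusted p of 0.571 for both. For iPS cells in 2i alone the differences were -0.80 ± 0.52 and -0.72 ± 0.54, and 0 of all genes were called in either comparison (1746 for ES cells and 1339 for iPS cells at an unadjusted p under 0.05).

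Line O4-1 was measured in both media and gives 1 array against 1, with no test. Its Lin28a level was 7.91 in 2i and 9.05 in KSR, a difference of -1.14, the only one of the 6 genes past 2-fold, as were 1.43 percent of all genes. Lin28b differed by -0.84, Trim71 by -0.47, Hmga2 by -0.23, Igf2bp1 by -0.07 and Igf2bp3 by 0.05. Lines in the same medium differed about as much. O4-4 in KSR lay 1.02 below O4-1 in KSR for Lin28a and 0.80 below it for Lin28b, where 1.55 percent of all genes differed 2-fold or more. It lay 1.02 and 1.22 below O4-2 for the same genes, where 2.83 percent did. Between O4-2 and O4-1 in KSR none of the 6 genes passed 2-fold, and 0.612 percent of all genes did. In 2i, ES cells minus iPS cells gave -0.72 for Lin28a and -0.99 for Lin28b, and none of the 6 genes passed 2-fold (0.978 percent of all genes). Between MEFs in iCD1 and FBS, Hmga2 alone passed 2-fold (2.7 percent of all genes), with 7.75 in iCD1 and 8.79 in FBS, while Lin28b differed by 0.48 and Lin28a by -0.13.

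Markers of pluripotent states and of fibroblasts also varied over these arrays. The formative and primed list, 11 genes such as Otx2 and Dnmt3b that mark cells leaving the ground state, had mean levels of 6.07 in ES cells in 2i, 6.14 in iPS cells in 2i, and 6.95, 7.30 and 6.03 in KSR lines O4-1, O4-2 and O4-4. The naive list, 12 genes such as Esrrb and Klf4, had means of 8.64 and 8.55 in the ES and iPS cells in 2i and 7.93, 7.42 and 8.69 in the KSR lines. For both 2i cultures minus the KSR lines, 11 naive genes lay above 0 and 1 below, and 2 formative genes above and 9 below. The median over all genes was 0.013. Dppa3 of the naive list went the other way (-1.525), with 5.25 and 5.64 in ES and iPS cells in 2i and 7.32 in O4-4. Foxd3 of the formative list did so too (0.80). In the means of these lists, as in Lin28a and Lin28b, O4-4 in KSR thus read closer to the 2i cultures than O4-1 and O4-2 did. The 12 fibroblast markers had mean levels of 7.13 in ES cells in 2i, 6.41 in iPS cells in 2i, and 6.88, 6.88 and 7.37 in KSR lines O4-1, O4-2 and O4-4. Of the 12, 10 had a higher value in O4-4 than in O4-1 (3 past 2-fold), 9 in O4-4 than in O4-2 (4 past 2-fold) and 12 in ES than in iPS cells in 2i (3 past 2-fold). Of all genes, 1.55, 2.83 and 0.978 percent differed 2-fold or more in either direction there. Their median differences were 0.0, 0.0 and -0.01, and the share of all genes with a higher value was not counted. Col1a1, a collagen of fibroblasts, read 9.87 and 8.90 in ES and iPS cells in 2i and 9.17, 9.21 and 10.32 in the KSR lines, against 12.45 and 12.61 in MEFs in iCD1 and FBS. Other markers were lower in O4-4, 2 of the 12 against O4-1 and 3 against O4-2. Thy1 read 6.17, 5.96 and 5.70 in KSR lines O4-1, O4-2 and O4-4, and Pdgfra 6.44, 5.96 and 5.78. Arrays lower in Lin28a and Lin28b than those they were set against were thus higher in most fibroblast markers in these 3 comparisons. In O4-1, by contrast, 4 of 12 had a higher value in 2i than in KSR (0 past 2-fold), and 3 were past 2-fold lower. There 1.43 percent of all genes differed 2-fold or more in either direction, at a median difference of 0.015. The part of pluripotent state or of fibroblasts in the Lin28 values was not tested.

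**Figure D3:**
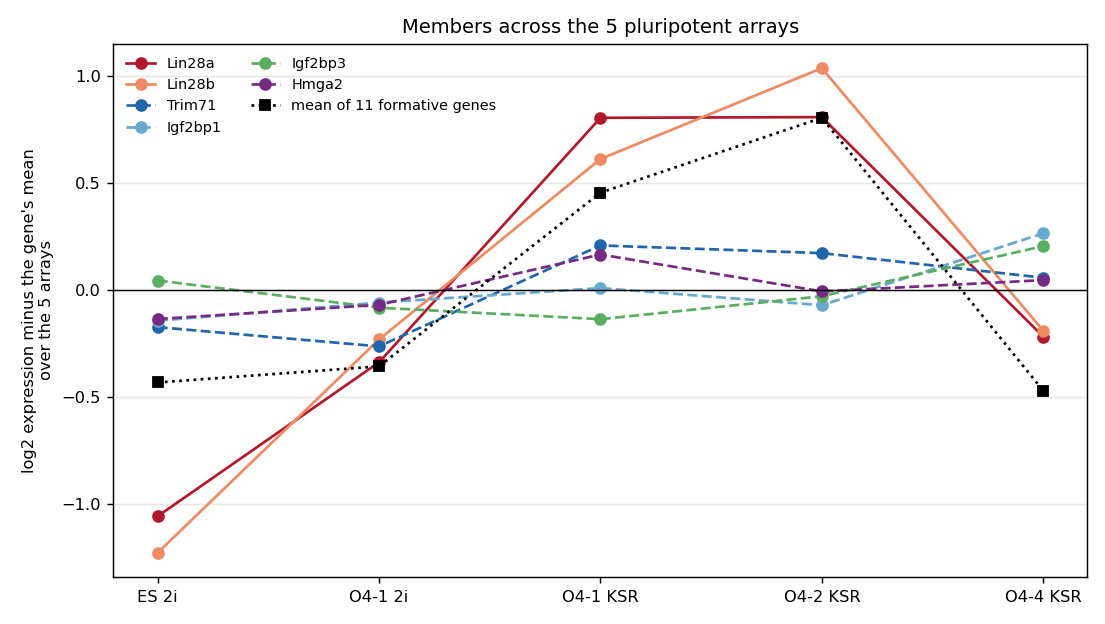
Levels of the 6 measured genes on the 5 pluripotent arrays (x axis) as log2 differences from each gene's own mean over these arrays (y axis). Lines join the points of a gene and mark no order of the arrays, and the dotted line is the mean of 11 formative and primed genes. Lin28a and Lin28b range over 1.86 and 2.26, and the other 4 genes over 0.30 to 0.47.

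The promoters of both Lin28 genes are shown because their levels had the same order over the pluripotent arrays. The stretches are the 250 bases before the RefSeq start (GRCm38.p6), Lin28a at chr4:134018817-134019066 and Lin28b at chr10:45470202-45470451, both on the minus strand and inside the span of the annotated gene. Capitals mark the motif found in each:
Lin28a: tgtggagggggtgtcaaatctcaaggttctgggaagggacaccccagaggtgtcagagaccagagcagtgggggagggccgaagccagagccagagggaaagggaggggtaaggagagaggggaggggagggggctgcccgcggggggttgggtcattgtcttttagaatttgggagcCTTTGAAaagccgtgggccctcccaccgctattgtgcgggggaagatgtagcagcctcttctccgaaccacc
Lin28b: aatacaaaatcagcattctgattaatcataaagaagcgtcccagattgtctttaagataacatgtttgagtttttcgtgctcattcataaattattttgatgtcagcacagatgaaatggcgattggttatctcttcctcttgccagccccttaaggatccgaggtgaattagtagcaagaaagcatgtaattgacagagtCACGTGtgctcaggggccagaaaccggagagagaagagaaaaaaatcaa
Of 5 motifs searched on both strands, Lin28a held CTTTGAA, a form of the Tcf/Lef motif, at -72, and Lin28b held the E box CACGTG at -49. Among 32851 mouse promoters of this length, 4.46% held CTTTGAA and 6.02% held CACGTG. Neither promoter held the octamer ATGCAAAT, which 1.6% of promoters did, CTTTGAT (3.21%) or AAGGTCA (4.08%). A match describes these letters only.

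Whether let-7 targets followed Lin28a was asked first within the circuit. Likeness was measured as the root mean square difference over the 7 arrays between log2 values centred on each gene's own mean, where 0 would be the same pattern. The measure counts the size of differences between arrays, so a gene that varies little, such as Igf2bp3, lies far from Lin28a whatever its order. Against Lin28a it was 0.51 for Lin28b, 0.60 for Trim71, 0.65 for Igf2bp1, 1.30 for Igf2bp3 and 2.22 for Hmga2. Their ranks among all genes were not taken. Trim71 and Igf2bp1 shared the step between MEFs and pluripotent cells with Lin28a, but not its spread among pluripotent arrays. For Trim71, as for Lin28a, O4-1 and O4-2 in KSR read highest, then O4-4, then the 2i cultures, within a range of 0.47. ES cells in 2i, lowest of the 5 in Lin28a, had a Trim71 level 0.09 above that of iPS cells in 2i. For Igf2bp1, O4-4 in KSR read highest. Hmga2 was opposite to Lin28a between cell types. With predicted genes passed over, the 5 genes most like Lin28a were Ddx4 (0.196), Dnmt3b (0.283), Tex11 (0.288), Cldn6 (0.289) and Mir20a (0.30). Ddx4 is a germline RNA helicase and Dnmt3b a DNA methyltransferase. Those most like Trim71 were Zfp345, Spint2, Zscan10, Rif1 and Fmr1nb, at 0.088 to 0.211. Those most like Hmga2 were Pakap, Kctd10, Lama2, Hgf and Rhoj, at 0.139 to 0.176.

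A wider list of 25 other genes reported as let-7 targets, 22 of them measured, was split. In the KSR lines 7 were called higher and 5 lower than in MEFs, at a median difference of 0.08, beside 0.00 over all genes, of which 12.1 percent were called higher and 14.3 percent lower. In iPS cells in 2i and in ES cells in 2i 6 were called higher and 3 lower in each, where 15.1 and 12.8 percent of all genes were called in either direction. Those higher in the KSR lines were Sall4, Mycn, Arid3b, Nr6a1, Cdc25a, Cdc34 and Dicer1, and those lower were Ccnd2, Igf1r, Insr, Ccnd1 and Plagl2. Dicer1 also stands in the list of microRNA processing genes described below, and its call is counted in both. Sall4, a zinc finger factor of pluripotent cells that is also in the pluripotency marker list, had the largest rise at 4.81 ± 0.12 (limma adjusted p = 0.00659).

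Mycn, the Myc family member of early embryonic cells, read 6.89 and 6.78 in ES and iPS cells in 2i, 7.59, 7.55 and 7.12 in the KSR lines, and 4.36 and 4.98 in MEFs in iCD1 and FBS. It was higher in the KSR lines by 2.75 ± 0.19 (limma adjusted p = 0.00820). Its order over the pluripotent arrays was that of Trim71. Both 2i cultures minus the KSR lines gave -0.59 ± 0.19 (limma unadjusted p = 0.0437, adjusted p = 0.551). Arid3b, an AT-rich DNA-binding factor, was higher by 2.38 ± 0.15, Nr6a1, an orphan nuclear receptor that represses Oct4 in differentiating cells, by 2.00 ± 0.11, and Cdc25a, a phosphatase that drives the cell cycle, by 1.54 ± 0.16 (limma adjusted p between 0.00740 and 0.0124).

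Ccnd2, the G1 cyclin D2, ran opposite to these. It read 7.90 and 7.23 in ES and iPS cells in 2i, 7.72, 8.32 and 8.12 in the KSR lines, and 11.20 and 11.04 in the MEFs in iCD1 and FBS. It was lower in the KSR lines (difference -3.07 ± 0.22, limma adjusted p = 0.00826). The growth factor receptors Igf1r (-1.64 ± 0.13) and Insr (-1.45 ± 0.17) and cyclin D1, Ccnd1 (-0.85 ± 0.09), were also lower, with adjusted p between 0.00878 and 0.0151.

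Among the pluripotent arrays 2 of the 22 targets ranged over 1 or more, Myc and Ccnd2, and the median range was 0.517. Of all genes 7.56% did, with a median range of 0.455. Myc, the growth regulator, read 5.57 and 5.46 in ES and iPS cells in 2i, 6.98, 7.02 and 6.00 in KSR lines O4-1, O4-2 and O4-4, and 6.58 and 8.28 in MEFs in iCD1 and FBS. As for Lin28a, O4-1 and O4-2 in KSR were the highest of the pluripotent arrays, but unlike Lin28a the MEFs in FBS were highest of all. Its KSR minus MEF difference was -0.77 ± 0.40 (limma adjusted p = 0.262). Of the 22, 0 were called between both 2i cultures and KSR, with 10 above 0 and 12 below. Since 0.0 percent of all genes were called there, this count says nothing particular about let-7 targets.

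**Figure D4:**
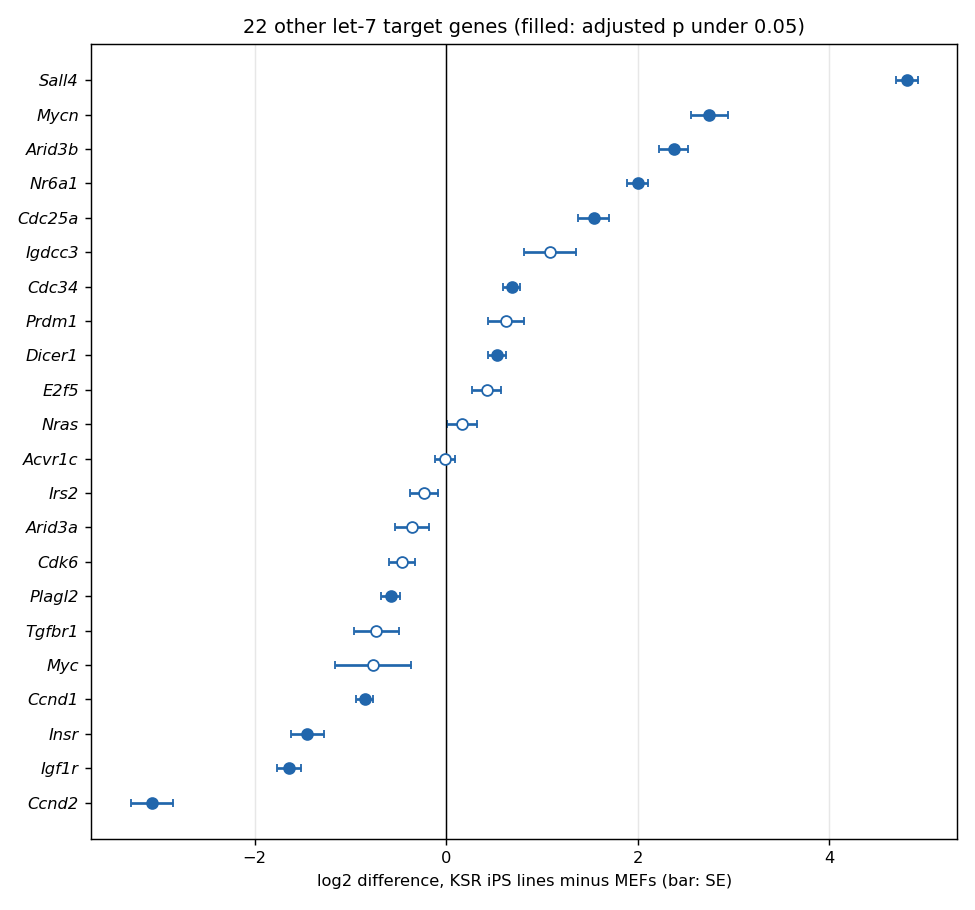
Log2 differences between the KSR iPS lines and MEFs (x axis) for the 22 other measured let-7 targets, with SE bars from limma. Filled points have an adjusted p under 0.05. They run between -3.07 for Ccnd2 and 4.81 for Sall4, with 7 called higher and 5 lower.

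The precursors themselves were read through 10 probe sets named for let-7 family hairpins, 9 with GGAG in the loop and 1, Mir98, without. Such probe sets report the primary or precursor RNA and not mature let-7, which was not measured here. Their levels were low, between 1.54 and 5.94, and 14 of the 70 values lay above the median gene of their array. In the KSR lines 3 were called higher and 0 lower than in MEFs, where 12.1 and 14.3 percent of all genes were. Mirlet7d was higher by 0.78 ± 0.09 (limma adjusted p = 0.0141), Mirlet7g by 0.81 ± 0.12 (adjusted p = 0.0227) and Mir98 by 0.47 ± 0.09 (adjusted p = 0.0406). Hairpins with and without the loop letters were thus both among those called.

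Mirlet7f-1 had the widest spread, with 4.15 in ES cells in 2i, 5.23 in iPS cells in 2i, 5.38, 4.97 and 4.37 in the KSR lines, and 3.49 and 3.10 in MEFs in iCD1 and FBS. All pluripotent arrays lay above both MEF arrays, and its difference of 1.61 ± 0.35 just missed the threshold (limma adjusted p = 0.0501). The other 6 hairpins differed by -0.21 to 0.04 and were not called. Some of these probe sets gave the same reading on several arrays. Mirlet7c-1 read 1.79 in MEFs in FBS, in iPS cells in 2i and in KSR lines O4-1 and O4-4. Such readings do not show that the precursor was unchanged. Mir98 read 4.19 and 3.77 in ES and iPS cells in 2i, 3.43, 3.34 and 3.48 in the KSR lines, and 2.97 and 2.93 in the MEFs in iCD1 and FBS. Unlike Lin28a, it was highest in the 2i cultures. Mir100hg, the host transcript of Mirlet7a-2, was lower in the KSR lines by 2.14 on the log2 scale (difference -2.14 ± 0.33, limma adjusted p = 0.0237). The Mirlet7a-2 probe set differed by -0.14 and was not called. It too repeated a reading, 2.96 in MEFs in FBS and in KSR lines O4-1 and O4-4. Of the other host genes listed, Huwe1 was higher by 0.47 ± 0.09 (limma adjusted p = 0.0420). Wdr82 differed by 0.47 ± 0.11 without passing (adjusted p = 0.0571), and Mir99ahg read 5.13 on every array.

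**Figure D5:**
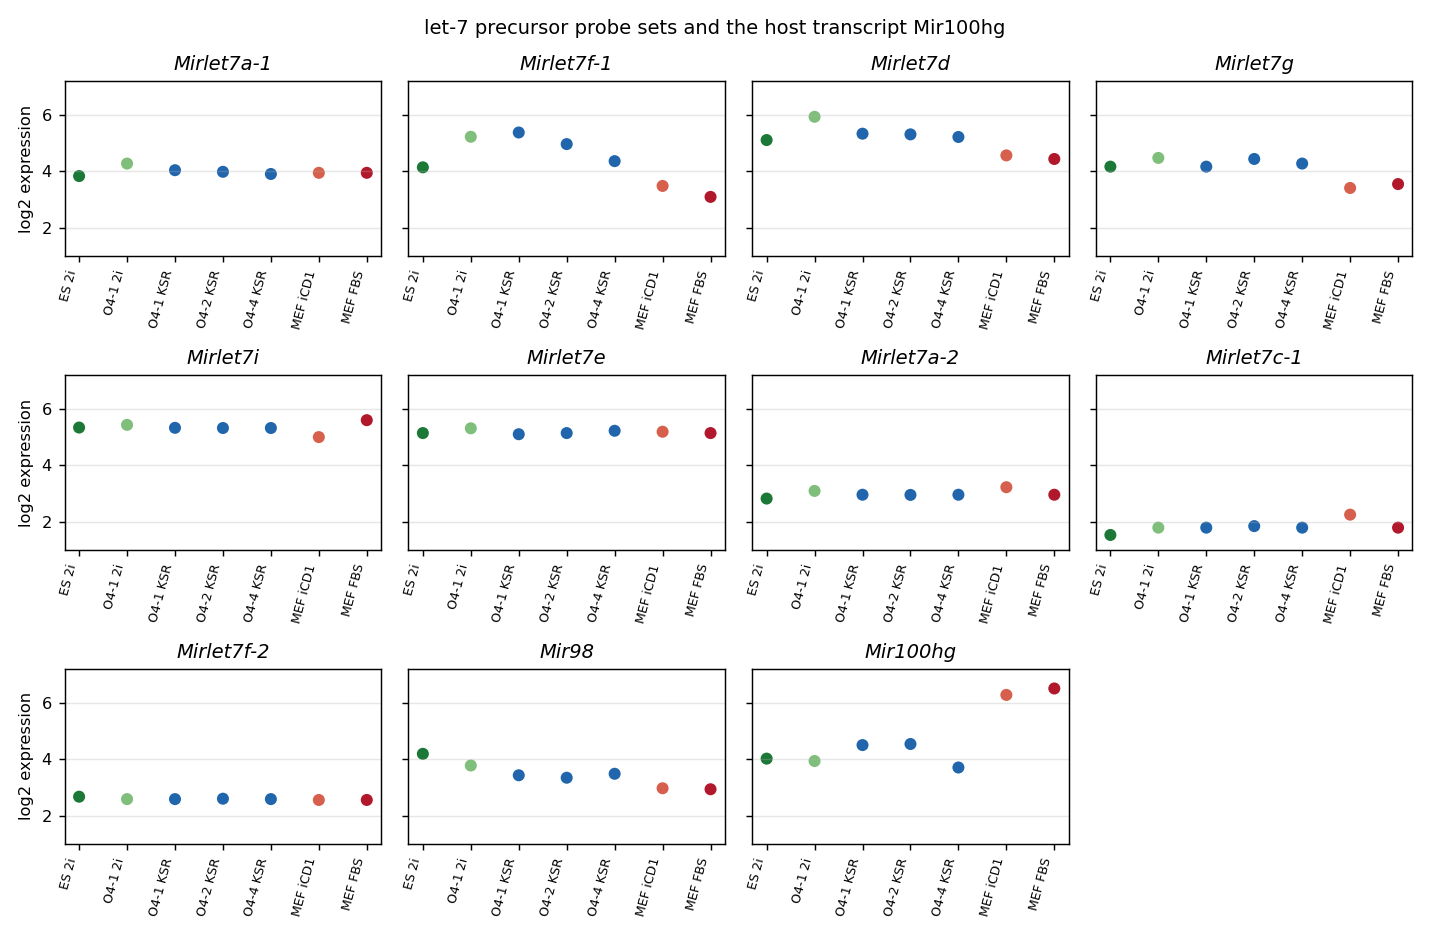
Log2 expression (y axis) of 10 let-7 family precursor probe sets and the host transcript Mir100hg on each of the 7 arrays (x axis), 1 point per array. Heights compare arrays within a panel. Mirlet7f-1 lies between 4.15 and 5.38 on the pluripotent arrays and at 3.49 and 3.10 in MEFs, and Mir100hg is highest in MEFs, at 6.27 and 6.50.

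The proteins that make and mark let-7 were described through a list of 24 microRNA processing genes, 23 of them measured. In the KSR lines 4 were called higher and 2 lower than in MEFs, where 12.1 and 14.3 percent of all genes were. The 6 calls of 23 are near the 26.4 percent called in all. The median difference was 0.16, beside 0.00 over all genes. Drosha, which cuts the primary transcript, was higher by 1.26 ± 0.11 (limma adjusted p = 0.00982). Xpo5, the exporter of precursors, was higher by 0.87 ± 0.09, Dicer1, which cuts the precursor, by 0.53 ± 0.09, and its partner Tarbp2 by 0.50 ± 0.10 (adjusted p between 0.0118 and 0.0372). Of the Lin28a partners, Tut7 was lower (difference -0.91 ± 0.19, adjusted p = 0.0445), Tut4 differed by 0.45 ± 0.13 without passing (adjusted p = 0.0839), and so did Dis3l2, the exonuclease that degrades uridylated let-7 precursors, by 0.39 ± 0.11 (adjusted p = 0.0791). Zswim8, a ubiquitin ligase adaptor that acts in microRNA decay, was lower (difference -1.82 ± 0.15, adjusted p = 0.00928). Between 2i and KSR 0 of the 23 were called, as were 0.0 percent of all genes.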

How the data were processed

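The authors deposited log2 expression for each probe set. The submitters' processing notes list RMA and Partek. Per the labels' protocols, 100 ng of Trizol-extracted total RNA went into the Affymetrix whole-transcript assay. Versions, probe definitions and genome build were not given in the sources used here, and no signal over background comes with the values. Array medians were 4.97 to 5.03, and the values were used without further normalization. Groups follow titles and growth conditions. Other label fields conflict with these: every description speaks of iPS cells on a day soon after infection, the ES sample has fibroblasts as its source name, and the iPS samples have iCD1 in theirs. No batch was found in the labels, and 0 pairs of arrays were identical.

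Of 28853 probe sets, 21789 had 1 gene symbol, 1621 had several and 5443 were not named by the annotation table. The gene IDs of 21698 matched the RefSeq table of GRCm38.p6. For 999 genes with several probe sets the one with the highest mean was kept, leaving 19938 genes. Tests were two-sided and used limma 3.58.1 (R 4.3.3) on 1 fit of 5 groups, with p-values adjusted over all genes by Benjamini-Hochberg. The fit had 2 residual degrees of freedom and a prior of 1.62 at an SD of 0.13, and it was tested on simulated data. Comparisons of 1 array with 1 had no test, and 2-fold differences were counted.

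The members and lists were chosen with earlier results of these data known. Of 187 entries in 14 lists, 174 had a probe set. The text names all members, any gene of the let-7 target and processing lists, up to the 4 largest called rises and falls of the other lists, and the 5 genes most like Lin28a, Trim71 and Hmga2, with predicted genes passed over. Mirlet7f-1, Mirlet7a-2, Mirlet7c-1, Wdr82, Mir99ahg and the marker examples were named after their values were seen. Sequences come from RefSeq tables of GRCm38.p6.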

Additional observations from a re-analysis of the deposited data

How the results depend on the processing

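Of 337 alternative values for single genes of the circuit, 301 kept their direction and, where tested, their side of the threshold. They include 1 at 0.00, Igf2bp3 in iPS cells in 2i against KSR without O4-4. Without a test, a value of 1 array against 1 counted as kept if it moved by less than the gene's SD over the KSR lines. The second Igf2bp1 probe set was judged by direction only. A further 30 kept the direction but no longer passed, 3 kept it and newly passed, and 3 reversed. All 3 reversals were of Igf2bp3, uncalled and near 0. For both 2i cultures against KSR (-0.03 with all lines) it was 0.024 after quantile normalization and ran between -0.107 and 0.0634 with 1 line left out. For ES cells in 2i against KSR (0.03) it ran between -0.0435 and 0.127. Leaving out 1 KSR line moved the number of the 6 genes called to between 0 and 5 for the KSR lines against MEFs (5 with all lines), and to 0 for iPS cells in 2i and for ES cells in 2i against MEFs (3 with all lines), where 1 residual degree of freedom remained. The 3 that newly passed were Lin28a in iPS cells in 2i against MEFs, with limma adjusted p of 0.0349 after quantile normalization, 0.0225 without dim genes and 0.0309 with trend and robust settings, in a range of 0.0225 to 0.190 over all alternatives. Over all genes, limma called 2968 in the KSR lines with MEFs in FBS alone, against 5260 with both MEF arrays, 1390 against 3010 in iPS cells in 2i and 956 against 2559 in ES cells in 2i. Without O4-4 it called 2776 in the KSR lines, and without O4-1 or O4-2 it called 0. The cause was not tested. No comparison of 2i with KSR called any gene under any alternative run. The 3-group fit was run only where each side is a whole group. No paired analysis was possible because only line O4-1 was measured in 2 media. Log2 values come with no signal over background, so low levels such as those of Lin28b and the hairpins are not separated from it.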

Other observations

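Other RNA-binding proteins were described through a list of 30 genes, 29 of them measured, of which 8 were called higher and 7 lower in the KSR lines than in MEFs by limma, where 12.1 and 14.3 percent of all genes were. The median difference was 0.28, beside 0.00 over all genes. The largest rises were Dazl (4.32 ± 0.79, adjusted p = 0.0344), a germline translation regulator, L1td1 (3.90 ± 0.21, adjusted p = 0.00708), an RNA-binding protein of pluripotent cells, Esrp1 (3.70 ± 0.73, adjusted p = 0.0400), an epithelial splicing regulator, and Ddx4 (3.01 ± 0.25, adjusted p = 0.00912). The largest falls were the splicing regulators Mbnl2 (-2.75 ± 0.32), Mbnl1 (-2.28 ± 0.18) and Rbfox2 (-1.32 ± 0.12), and Zfp36 (-1.24 ± 0.11), which promotes decay of AU-rich mRNAs, with limma adjusted p between 0.00890 and 0.0144. Dazl, Ddx4, Esrp1 and Mbnl2 were among 7 of the 29 that ranged over 1 log2 unit or more among the 5 pluripotent arrays. Of all genes 7.56% did.

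Partners of the Hmga and Igf2bp genes, a list of 16 with 15 measured, had 1 gene called higher and 8 lower in the KSR lines than in MEFs by limma, where 12.1 and 14.3 percent of all genes were. The median difference was -0.92, beside 0.00 over all genes. Igf2, the growth factor whose mRNA the Igf2bp proteins bind, was lower (difference -3.53 ± 0.16), as were the insulin receptor substrate Irs1 (-3.11 ± 0.30), the Igf2 clearance receptor Igf2r (-2.34 ± 0.08) and the nucleosome-binding Hmgn3 (-2.33 ± 0.30). Hmgb2, a chromatin protein of dividing cells, was higher by 1.86 ± 0.09 (limma adjusted p = 0.00659). Igf1r and Insr stand in this list and among the let-7 targets.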
